A study of Mus musculus with 4 samples.

Results

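Myostatin is a secreted factor of the TGF-β family that restrains the growth of skeletal muscle, and the genes described here encode the ligands, inhibitors, receptors and intracellular mediators of its pathway. They were chosen by symbol, as the rows of the deposited soleus table named Mstn, Gdf11, Fst, Fstl3, Acvr2a, Acvr2b, Smad2, Smad3 and Smad7. All 9 of the 9 symbols were found among the 23420 genes of the table, and all 9 passed the filter on low values. RNA of the soleus, a posture muscle of the lower leg that holds slow as well as fast fibers, was sequenced in 1 library for each of 4 mice, the muHuR-KO mice 1-9 and 3-9 (n = 2) and the controls 3-8 and 3-12 (n = 2). The muHuR-KO mice are labelled MyoDCre+;LoxP-/- and the control mice MyoDCre-;LoxP-/-, all on a C57BL/6 background and aged 10 weeks. The labels write LoxP-/- for every mouse, whereas the study's text describes floxed alleles of Elavl1, the gene for the RNA-binding protein HuR. The Cre recombinase is driven by the MyoD promoter, which is active in muscle progenitors, so that cells of other lineages in the muscle keep the gene. Whole muscle was lysed, and fewer cells of a type and less RNA per cell cannot be told apart in these values.

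Myostatin and its close relative GDF11 bind the type II activin receptors ACVR2A and ACVR2B, which recruit a type I receptor that phosphorylates SMAD2 and SMAD3. These move to the nucleus with SMAD4 and change transcription, while SMAD7, itself induced by the pathway, blocks the receptors. Follistatin and FSTL3 bind the ligands outside the cell and keep them from the receptors, and loss of myostatin in mice and cattle gives heavily enlarged muscles.

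HuR binds AU-rich and U-rich stretches, mostly in the 3′ untranslated regions of its target mRNAs, so the AU-rich sites of these mRNAs are shown before their levels. The main motif searched was TATTTAT, on the transcript strand only, in the annotated 3′ untranslated region of the longest coding transcript, where T stands for the U of the RNA. It was present in 7 of the 9 mRNAs and in 30.5% of the 12693 tested genes with an annotated region of at least 30 bases. Mstn and Acvr2b lacked it in these windows. Fst held 4 copies, Gdf11, Smad2 and Smad3 held 2 each, and Fstl3, Acvr2a and Smad7 held 1 each. The longer motif TTATTTATT, which contains the first, was found in Fst, Gdf11 and Fstl3 alone among the 9, and in 8.08% of the tested genes. The shorter motif ATTTA and the U-rich TTTTT were each found in all 9, and in 70.4% and 78.4% of the tested genes. Mstn held 7 copies of ATTTA and 12 of TTTTT, and Acvr2b held 1 and 28 (overlapping matches counted). The regions of the 9 genes ran from 1155 bases in Fstl3 to 6233 bases in Smad2, against a median of 1197 bases over the tested genes, and long regions hold more matches. A match describes the letters, and binding of HuR was not measured. The sites below are those of the receptor Acvr2a, of both inhibitors, of Gdf11 (1 of 2) and of Smad3 (1 of 2), each given 5′ to 3′ as 29 bases from GENCODE M21 transcripts, with TATTTAT in capitals.
Acvr2a (chr2:48900786-48900814, plus strand): tttttttttccTATTTATatatataaaat
Fst, first site (chr13:114453250-114453278, minus strand): aagtgtatgctTATTTATttggggggaaa
Fst, second site (chr13:114453108-114453136, minus strand): ttgtagacattTATTTATactgtgtcatg
Fst, next site (chr13:114453005-114453033, minus strand): agagcagttgtTATTTATtgtgaggtctc
Fst, site nearest the end (chr13:114452835-114452863, minus strand): tctgtcatgttTATTTATtggattctcag
Fstl3 (chr10:79781506-79781534, plus strand): catcccgatttTATTTATtgttatagaaa
Gdf11, the first of 2 overlapping sites (chr10:128884504-128884532, minus strand): tttttttaattTATTTATttattgtgact
Smad3 (chr9:63647334-63647362, minus strand): tgccgctttcgTATTTATgtaacaattcc
In Acvr2a the motif stands near a run of T and is followed by A and T alone, and in Gdf11 it lies in a stretch of T with few other letters. The site of Smad3 shown stands in sequence of mixed composition.

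The deposited values are normalized counts, that is the reads of each gene scaled by the size factor of its library. Whole reads could be recovered from them and came to between 13301715 in control 3-12 and 33348893 in muHuR-KO 3-9, so that low genes are least precise in control 3-12. The libraries farthest apart were the 2 controls (Euclidean distance of 89.8 over the log2 values of 13287 genes). The closest pair joined the groups, control 3-12 with muHuR-KO 3-9 (48.9), just under the 49.2 of the muHuR-KO pair. For control 3-12 with muHuR-KO 1-9 the distance was 54.1. Control 3-8 was remote from every library, its shortest distances being 73.0 (muHuR-KO 3-9) and 79.2 (muHuR-KO 1-9). By these distances the libraries did not group by genotype. Control 3-8 was low in genes of low GC content. In the lowest of the 10 groups of equal size by GC content (deciles), control 3-12 exceeded control 3-8 by a median of 1.11 on the log2 scale. Each value is therefore given for each library singly, and fold changes are given against both controls. The deposited table is named for a comparison with a single control, and its name does not say which. Fold changes are also given against control 3-8, a choice made here, with the value against control 3-12 where it differs in sign. Elavl1 itself had 1210 and 1205 normalized counts in muHuR-KO muscle, against 1350 in control 3-8 and 1190 in control 3-12. These counts cover the whole gene and check no genotype. Muscle markers such as Ckm and Acta1 were among the abundant genes of every library, and each of 10 muscle fiber markers was detected in all 4.

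The 9 mRNAs spanned a wide range of levels, with Smad3 the highest and Fstl3 the lowest. Per kilobase of exon, Smad3 had 355 and 373 normalized counts in muHuR-KO 1-9 and 3-9, against 433 in control 3-8 and 465 in control 3-12. Acvr2a followed with 123 and 122 normalized counts per kilobase in muHuR-KO muscle, against 46.2 and 160 in controls 3-8 and 3-12. Mean levels per kilobase over the 4 libraries were 82.2 for Smad2, 54.5 for Smad7, 41.6 for Fst, 21.1 for Mstn, 18.5 for Gdf11, 12.6 for Acvr2b and 8.52 for Fstl3. Smad3 lay above Acvr2a, Smad2 above Smad7, and Fst above Mstn in every library without overlap of their ranges. The other neighbours in this order (Acvr2a and Smad2, Smad7 and Fst, Mstn and Gdf11, Gdf11 and Acvr2b, Acvr2b and Fstl3) overlapped, and each of these pairs kept its order in 3 of 4 libraries. Acvr2a mRNA thus exceeded Acvr2b mRNA in every library, by 10.5 and 7.06 times per kilobase in muHuR-KO 1-9 and 3-9, and by 6.41 and 11.4 times in control 3-8 and control 3-12.

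**Figure D1:**
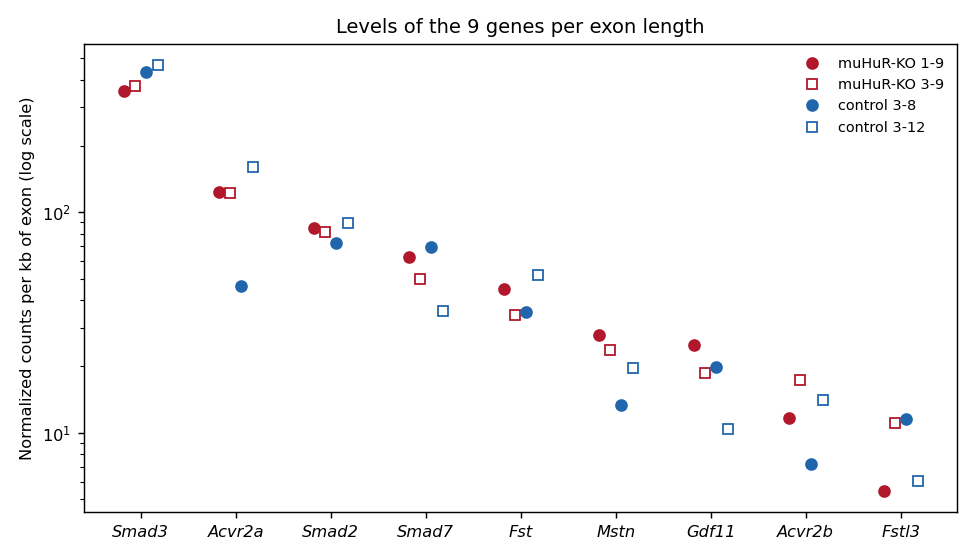
Levels of the 9 genes as normalized counts per kilobase of exon (log scale), with 1 point for each library, muHuR-KO in red and controls in blue. Smad3 lies above 355 in every library, Fstl3 lies below 12 in every library (highest value 11.6), and the point of control 3-8 is far below the others for Acvr2a.

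Against both controls, none of the 9 genes passed an adjusted p under 0.05 in muHuR-KO muscle (limma, fitted over 13287 genes on log2 of the normalized count plus 1). Among all tested genes 0% passed, so the comparison separates no gene, and the adjusted p of each of the 9 genes was 0.9999, also where it is not repeated. At an unadjusted p under 0.05 the count was 0 of the 9 genes and 102 of all genes, and edgeR and DESeq2 on the recovered reads also called 0 of the 9. The log2 fold changes ran from -0.30 for Smad3 to 0.65 for Mstn, with a median of 0.16 over the 9 genes and of -0.01 over all tested genes. The muHuR-KO and control normalized counts did not overlap for 2 of the 9 genes, Mstn (higher in muHuR-KO) and Smad3 (lower in muHuR-KO). Over all tested genes, both muHuR-KO libraries lay above both controls in 9.57% and below both in 13.0%, so that 2 of 9 is near this background. With the GC correction given below, Gdf11, Fst, Smad2 and Smad3 did not overlap between the groups, and Mstn did. The share over all genes was not counted for the corrected values. Against control 3-8 alone, while control 3-12 stayed in the fit as a separate group, 1 of the 9 genes (Acvr2a) was higher at an adjusted p under 0.05 and none was lower, where 9.81% of all tested genes were called, 9.69% higher and 0.128% lower. The largest log2 fold changes of the 9 in this comparison were 1.41 for Acvr2a, 0.96 for Acvr2b and 0.92 for Mstn. After each library was corrected by a loess curve against GC content, none of the 9 was called against control 3-8, where 3.65% of tested genes were called, 2.19% higher and 1.46% lower. In this comparison the spread of each gene rests on 1 residual degree of freedom, from the muHuR-KO pair, moderated by limma with 8.34 prior degrees of freedom from all genes, and the lone control is assumed to vary in the same way.

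**Figure D2:**
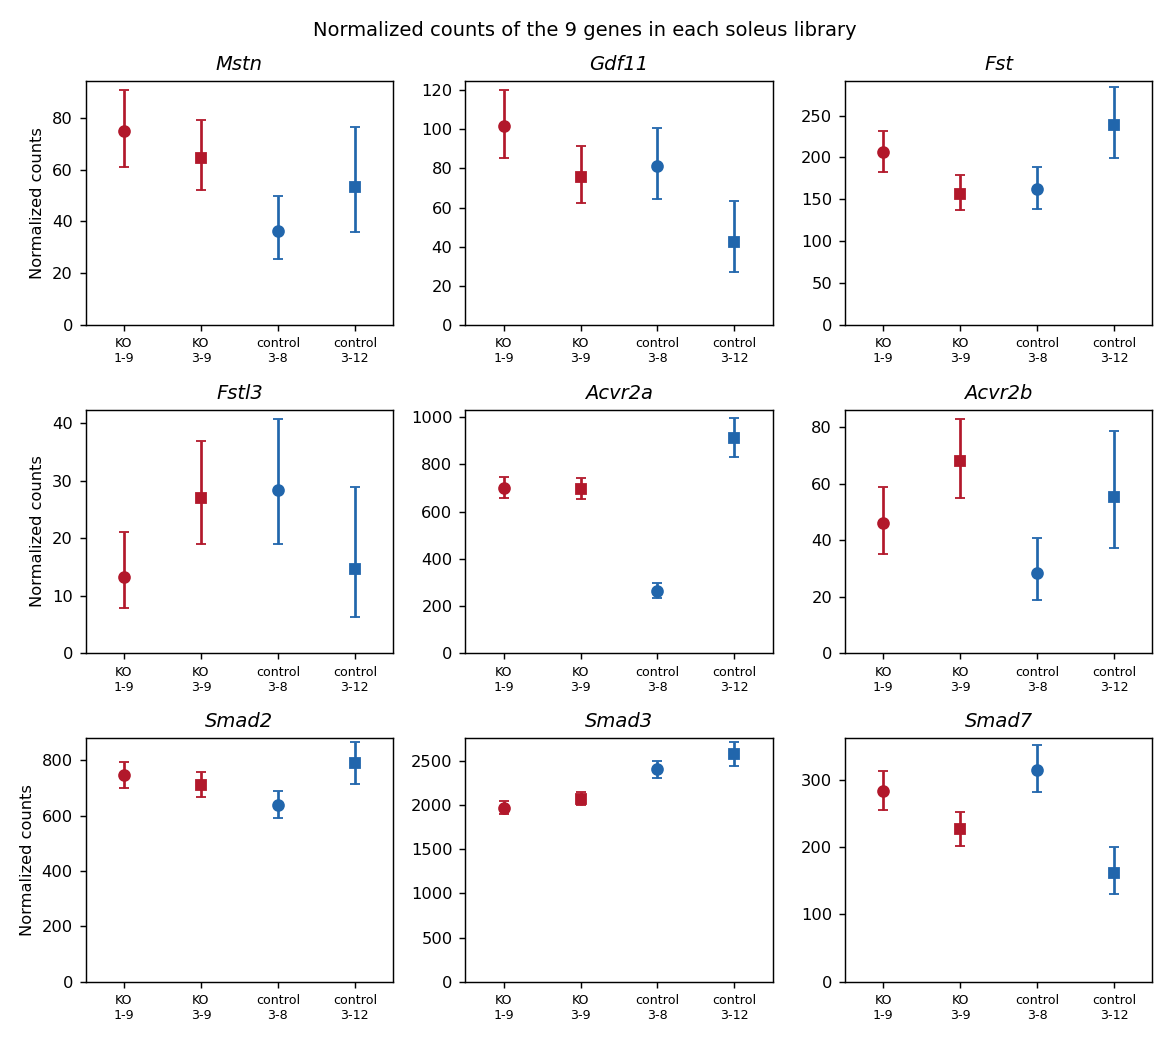
Normalized counts of each gene in the 4 libraries, with 95% Poisson intervals that cover counting error only, muHuR-KO in red on the left and controls in blue on the right. Acvr2a is at about the same height in both muHuR-KO libraries, between the controls, and the points of Mstn and Smad3 do not overlap between the groups.

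The ligands Mstn and Gdf11 were low mRNAs in the soleus, and their higher means in muHuR-KO muscle did not pass the test. Mstn (chromosome 1 of GRCm38, 53061640 to 53068079, plus strand) encodes myostatin and had 74.9 and 64.5 normalized counts in muHuR-KO 1-9 and 3-9, against 36.1 in control 3-8 and 53.3 in control 3-12. The muHuR-KO libraries were thus the 2 highest, but the values rest on 101 and 91 reads in muHuR-KO muscle and 37 and 29 reads in the controls. The 95% Poisson intervals of muHuR-KO 3-9 (51.9 to 79.2) and control 3-12 (35.7 to 76.6) overlap. Means were 69.7 ± 7.33 in muHuR-KO and 44.7 ± 12.2 in control muscle (SD, n = 2 each). On the log2 scale Mstn differed by 0.65 from both controls (standard error 0.38), and by 0.92 from control 3-8 (standard error 0.37), where limma gave an adjusted p of 0.180. Mstn has a GC content of 38.1% and falls in the lowest decile of GC content, where the median log2 fold change against control 3-8 was 0.99. With the GC correction the log2 fold change of Mstn was 0.20 against both controls and -0.14 against control 3-8, and the groups overlapped. The corrected log2 values were 6.03 and 5.83 in muHuR-KO 1-9 and 3-9, against 6.07 in control 3-8 and 5.39 in control 3-12.

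Myostatin is made mainly by fast fibers, and the myosin genes differed between mice of the same group. Myh4, the myosin of the fastest fibers, had 18766 and 2021 normalized counts in muHuR-KO 1-9 and 3-9, against 21982 and 1702 in control 3-8 and control 3-12. One mouse of each group was therefore far above the other. Myh1, another fast myosin, had 152186 and 158075 normalized counts in muHuR-KO 1-9 and 3-9, against 54545 in control 3-8 and 229802 in control 3-12. Control 3-8 was the lowest library for Myh1 and for Mstn, and the highest for Myh4. Myh1 was higher against control 3-8 by 1.51 on the log2 scale. Its log2 difference from control 3-12 was -0.57, where that of Mstn was 0.38. The summed level of 8 fast fiber markers was 1301770 and 1155230 in muHuR-KO 1-9 and 3-9, against 1165550 and 1419860 in controls 3-8 and 3-12, and 1 of the 8 was called against control 3-8. The 7 slow fiber markers summed to 1053460 and 1135850 in muHuR-KO muscle, against 1660970 and 1022500, with none called in either comparison. Their part in the level of Mstn was not tested.

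Gdf11 (chromosome 10, 128882295 to 128891718, minus strand) encodes a ligand closely related to myostatin that shares its receptors. It had 102 and 75.8 normalized counts in muHuR-KO 1-9 and 3-9, against 81.0 in control 3-8 and 42.3 in control 3-12. Control 3-12 stood apart as the lowest, with 23 reads, and control 3-8 lay between the muHuR-KO libraries. Against both controls its log2 fold change was 0.57 (standard error 0.42). Set against control 3-8 it was 0.11 (standard error 0.36), with a limma adjusted p of 0.873. Without control 3-8 it was 1.04 (adjusted p = 0.903 from limma), so the size of this difference is set by the control used. With the GC correction the groups did not overlap for Gdf11. Its corrected log2 values were 6.72 and 6.30 in muHuR-KO 1-9 and 3-9, against 6.23 in control 3-8 and 5.48 in control 3-12. Mstn exceeded Gdf11 per kilobase by 1.11 and 1.28 times in muHuR-KO 1-9 and 3-9, against 0.669 times in control 3-8 and 1.89 times in control 3-12.

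The inhibitors Fst and Fstl3 overlapped between the groups in normalized counts and passed no test. Fst (chromosome 13, 114452290 to 114458951, minus strand) encodes follistatin, which binds activins, myostatin and GDF11 and blocks their receptor binding. It had 206 and 157 normalized counts in muHuR-KO 1-9 and 3-9, against 162 in control 3-8 and 239 in control 3-12. The highest and the second lowest value were both controls. Its log2 fold change was -0.13 against both controls (standard error 0.33) and 0.15 against control 3-8 (standard error 0.30), of opposite sign because control 3-12 is the highest library (log2 difference from it -0.41). With the GC correction Fst had log2 fold changes of -0.29 against both controls and -0.25 against control 3-8. The corrected log2 values of Fst did not overlap. They were 7.58 and 7.24 in muHuR-KO 1-9 and 3-9, against 7.66 in control 3-8 and 7.74 in control 3-12. Fstl3 (chromosome 10, 79777272 to 79782630, plus strand) encodes a follistatin-like protein that binds myostatin in serum. Fstl3 had 13.3 and 26.9 normalized counts in muHuR-KO 1-9 and 3-9, against 28.3 in control 3-8 and 14.7 in control 3-12. These are 18, 38, 29 and 8 reads in the same libraries, the log2 fold change was -0.10 against both controls (-0.55 against control 3-8 and 0.35 against control 3-12), and in each group 1 mouse was about as high as the higher mouse of the other group. Fstl3 shares 1157 exon bases with Prss57 on the other strand, and Prss57 had at most 1 read in any library.

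Per kilobase of exon, Fst stood closer to Mstn in muHuR-KO muscle than in the controls, a ratio picked out after the values were seen. It was 1.62 and 1.43 in muHuR-KO 1-9 and 3-9, against 2.64 in control 3-8 and 2.64 in control 3-12. Counting alone gives wide limits for this ratio, 1.29 to 2.06 in muHuR-KO 1-9 and 1.12 to 1.85 in muHuR-KO 3-9, against 1.84 to 3.89 in control 3-8 and 1.76 to 4.10 in control 3-12 (exact binomial, 95%). Size factors cancel in this ratio, but GC content does not, since Fst has 44.3% and Mstn 38.1%. Not divided by exon length, the log2 difference of Fst from Mstn was 1.45 and 1.27 in muHuR-KO 1-9 and 3-9, against 2.14 in each control. With the GC correction this log2 difference was 1.55 and 1.41 in muHuR-KO 1-9 and 3-9, against 1.60 in control 3-8 and 2.35 in control 3-12. Control 3-8 then lay close to the muHuR-KO libraries.

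The receptor mRNA Acvr2a was the only one of the 9 that was called, and only against control 3-8. Acvr2a (chromosome 2, 48814109 to 48903269, plus strand) encodes activin receptor type 2A. It had 701 and 695 normalized counts in muHuR-KO 1-9 and 3-9, against 263 in control 3-8 and 911 in control 3-12. The muHuR-KO libraries were nearly equal and lay between the controls, which differed by 3.47 times, and the rest of the 9 genes spanned at most 2.40 times over the libraries. Means were 698 ± 4.15 in muHuR-KO and 587 ± 458 in control muscle (SD, n = 2 each). Relative to control 3-8, Acvr2a rose by 1.41 on the log2 scale (standard error 0.23), at a limma adjusted p of 0.00852, in 2 of 2 muHuR-KO libraries. Against both controls the log2 fold change was 0.51 (standard error 0.53), and without control 3-8 it was -0.38 (adjusted p = 0.9998 from limma). With a GC content of 39.9%, Acvr2a belongs to the lowest decile, in which 44.9% of genes were called higher against control 3-8. With the GC correction Acvr2a differed from control 3-8 by 0.53 (limma adjusted p = 0.248). The call was also lost without the filter on low counts (adjusted p = 0.273) and without the trend of the test (adjusted p = 0.0615). Acvr2a shares 446 exon bases with Orc4 on the other strand, and no strand setting of the counting is given in the sources used here. Orc4, a subunit of the origin recognition complex, had 623 and 632 normalized counts in muHuR-KO 1-9 and 3-9, against 375 in control 3-8 and 682 in control 3-12, in the same order of libraries from low to high except that the muHuR-KO pair is exchanged. Orc4 has a GC content of 36.8%, and with the GC correction its log2 fold change against control 3-8 was -0.45. Whether reads of Orc4 enter the counts of Acvr2a was not tested.

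Acvr2b (chromosome 9, 119402118 to 119434995, plus strand) encodes activin receptor type 2B, the receptor with high affinity for myostatin. It had 46.0 and 68.0 normalized counts in muHuR-KO 1-9 and 3-9, against 28.3 in control 3-8 and 55.2 in control 3-12. Control 3-8 was the lowest, with 29 reads, and control 3-12 lay between the muHuR-KO libraries. On the log2 scale it exceeded control 3-8 by 0.96 (standard error 0.41), at a limma adjusted p of 0.211. The value against both controls was 0.49 (standard error 0.46), and against control 3-12 alone it was 0.02. Acvr2b has a GC content of 54.4%, and the median log2 fold change against control 3-8 in its decile was -0.28. The GC correction moved its value up, to 1.18 (limma adjusted p = 0.122).

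**Figure D3:**
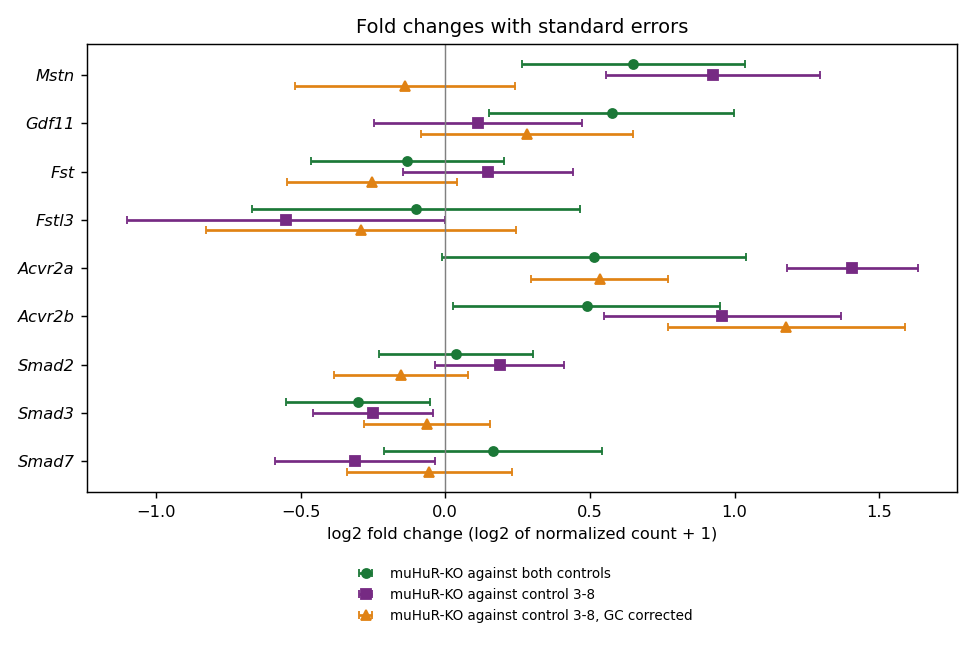
The log2 fold change of each gene with its standard error, for muHuR-KO against both controls (circles), against control 3-8 (squares) and against control 3-8 after the correction for GC content (triangles). Acvr2a stands at 1.41 against control 3-8 and at 0.53 after the correction, whereas Mstn moves from 0.92 to -0.14.

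The SMAD genes were the most stable of the axis over the 4 libraries, apart from Smad7. Smad2 (chromosome 18, 76241580 to 76310963, plus strand) encodes a mediator that the type I receptor phosphorylates. It had 746 and 712 normalized counts in muHuR-KO 1-9 and 3-9, against 640 in control 3-8 and 789 in control 3-12, with a highest value 1.23 times the lowest. Its log2 fold change was 0.04 against both controls (standard error 0.27), and the sign changed with the corrections for GC content (-0.10) and for transcript length (-0.16), and was -0.12 against control 3-12 alone. The GC-corrected log2 values of Smad2 did not overlap. They were 9.44 and 9.43 in muHuR-KO 1-9 and 3-9, against 9.59 in control 3-8 and 9.48 in control 3-12. Smad3 (chromosome 9, 63646767 to 63757994, minus strand) encodes the other mediator that the type I receptor phosphorylates. Smad3 had 1968 and 2070 normalized counts in muHuR-KO 1-9 and 3-9, against 2402 in control 3-8 and 2579 in control 3-12. Both muHuR-KO libraries lay below both controls, and their 95% Poisson intervals reached at most 2146, whereas those of the controls began at 2308. Means were 2019 ± 71.9 in muHuR-KO and 2491 ± 125 in control muscle (SD, n = 2 each). On the log2 scale this was -0.30 against both controls (standard error 0.25), and -0.25 against control 3-8 (standard error 0.21), with a limma adjusted p of 0.491. It was negative without each library in turn. The difference was thus larger than counting error and did not pass the test of the spread between mice. With the GC correction the log2 fold change of Smad3 was -0.22 against both controls and -0.06 against control 3-8, and the groups did not overlap, with log2 values of 11.00 and 11.05 in muHuR-KO 1-9 and 3-9, against 11.08 in control 3-8 and 11.39 in control 3-12.

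Smad7 (chromosome 18, 75367529 to 75395935, plus strand) encodes the inhibitory SMAD. It had 283 and 226 normalized counts in muHuR-KO 1-9 and 3-9, against 314 in control 3-8 and 162 in control 3-12. Both muHuR-KO libraries lay between the controls, which were the highest and the lowest. Its log2 fold change was 0.16 against both controls (standard error 0.38). Control 3-8 alone gave -0.31 (standard error 0.28), at a limma adjusted p of 0.518, and control 3-12 alone gave 0.64. Per kilobase, Smad3 exceeded Smad2 by 4.18 and 4.61 times in muHuR-KO 1-9 and 3-9, against 5.95 and 5.18 times in controls 3-8 and 3-12.

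**Figure D4:**
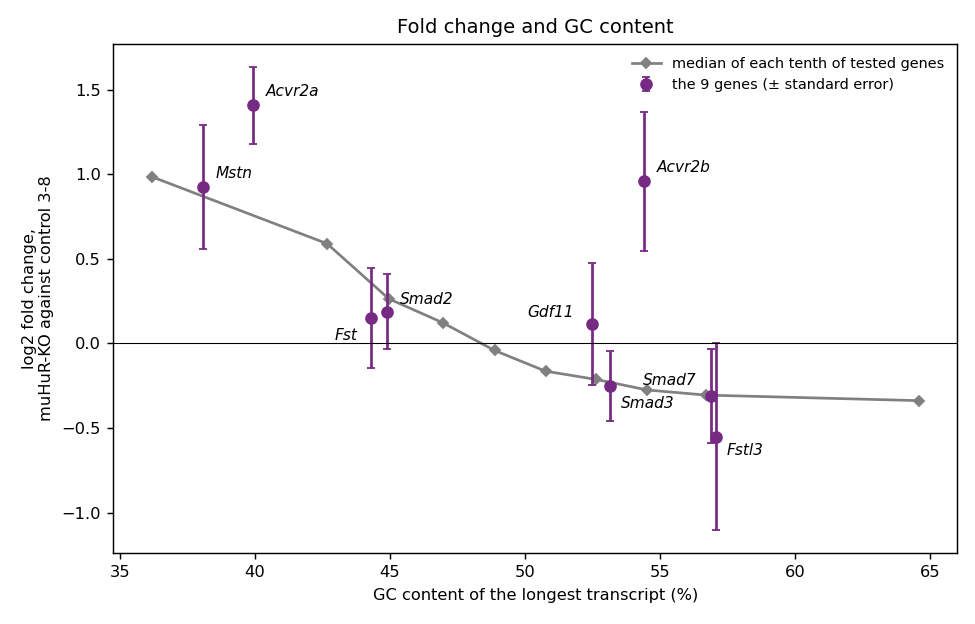
The log2 fold change of muHuR-KO against control 3-8 for the 9 genes (circles with standard errors) by the GC content of the longest transcript, with the median of each decile of all tested genes (diamonds and line). Mstn lies near the line, Acvr2a lies above it by more than its standard error, and Acvr2b, at 54.4% GC, stands at 0.96 where the median of its decile is -0.28.

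The 9 genes fell in 5 of the 10 deciles of GC content, and the median log2 fold change against control 3-8 over all deciles ran from 0.99 in the lowest to -0.34 in the highest. Fst and Smad2, in a decile with a median of 0.26, had log2 fold changes of 0.15 and 0.19 against control 3-8. Gdf11 and Smad3 shared a decile with a median of -0.21 and had 0.11 and -0.25. Fstl3 and Smad7, in a decile with a median of -0.31, had -0.55 and -0.31. Of the 9 genes, 4 lay above and 3 lay below control 3-8 in both muHuR-KO libraries, against 38.2% and 41.9% of all tested genes. Against control 3-12, 3 lay above and 4 lay below in both, against 28.8% and 36.4%.

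Beyond these 9, 89 further genes of the TGF-β superfamily were listed by role, of which 79 passed the filter on low values. None of the 79 was called against both controls by limma, edgeR and DESeq2 called none of all genes, and 1 of the 79 had in limma an unadjusted p under 0.05. This was Smad9, a SMAD of the bone morphogenetic protein (BMP) branch, with 28.2 and 18.4 normalized counts in muHuR-KO 1-9 and 3-9, against 10.7 in control 3-8 and 7.36 in control 3-12. Smad9 differed by 1.26 on the log2 scale (standard error 0.53, limma adjusted p = 0.9999), both muHuR-KO libraries were higher, and the control values rest on 11 and 4 reads. Against control 3-8, 12 of the 79 genes (15.2%) were higher and none was lower, where 9.69% of all tested genes were higher. All 12 were among the 20 listed genes in the 3 lowest deciles of GC content, and after the correction for GC content 1 of them, Trim33, was still called.

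Of 15 tested receptors and coreceptors, 5 were higher against control 3-8 and none was lower, and the median log2 fold change was 0.07. The 5 were the type I receptors Tgfbr1, Acvr1c, Bmpr1a and Bmpr1b and the BMP type II receptor Bmpr2, named here after their values were seen. Tgfbr1, Acvr1c, Bmpr1a and Bmpr2 (GC content 40.1% to 41.3%) fell in the lowest decile of GC content. The median log2 fold change of that decile against control 3-8 was 0.99. Bmpr1b (42.2%) fell in the next decile, with a median of 0.59. Against control 3-8 the 5 differed by 1.05 to 2.17 on the log2 scale, and by 0.29 to 1.31 with the GC correction. Tgfbr1, which encodes the type I receptor ALK5, had 682 and 665 normalized counts in muHuR-KO 1-9 and 3-9, against 324 in control 3-8 and 717 in control 3-12. Acvr1b, which encodes ALK4, the main type I partner of the activin receptors, had 250 and 321 normalized counts in muHuR-KO muscle, against 270 and 292 in controls 3-8 and 3-12. The control values of Acvr1b lay between those of the muHuR-KO libraries. Acvr1c (ALK7) had 63.7 and 57.4 normalized counts in muHuR-KO muscle, against 12.7 in control 3-8 and 116 in control 3-12, the widest gap between the controls among the 5. The muHuR-KO mean of each of the 5 lay below control 3-12, with log2 differences between -0.93 and -0.09. The 2 receptors and coreceptors of smallest p against both controls were Rgma, a BMP coreceptor, and Tgfbr3 (betaglycan), with log2 fold changes of -0.39 and 0.39. The value of Tgfbr3 was 0.12 without control 3-8 and 0.66 without control 3-12. Rgma had 964 and 963 normalized counts in muHuR-KO muscle, against 1322 in control 3-8 and 1207 in control 3-12. Both muHuR-KO values lay below both controls, as in 13.0% of all tested genes.

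Among 12 other tested ligands, Bmp5 was higher against control 3-8 and none was lower, and the log2 difference of Bmp5 from control 3-12 was -0.26. Inhba, which encodes the subunit of activin A and binds the same type II receptors, had 17.0 and 21.3 normalized counts in muHuR-KO 1-9 and 3-9, against 5.86 in control 3-8 and 18.4 in control 3-12. Gdf10, a ligand related to BMP3, had 101 and 107 in muHuR-KO muscle, against 112 and 177 in controls 3-8 and 3-12. Neither passed a test, and the muHuR-KO values of Gdf10 were the lowest of the 4, as in 13.0% of all tested genes. Of 12 antagonists and latency proteins none was called in either comparison. Dcn, the proteoglycan decorin, which binds TGF-β and myostatin, had 14920 and 7980 normalized counts in muHuR-KO 1-9 and 3-9, against 7020 and 8938 in controls 3-8 and 3-12. Nog, which encodes the BMP antagonist noggin, had a log2 fold change of -0.29 against both controls. Wfikkn2 encodes GASP1, which binds myostatin, and had 145 and 211 normalized counts in muHuR-KO muscle, against 270 and 166 in the controls. The high level of Dcn in muHuR-KO 1-9 was shared by the fibroblast and tendon markers. The 8 fibroblast markers summed to 63112 and 39028 normalized counts in muHuR-KO 1-9 and 3-9, against 36580 in control 3-8 and 38726 in control 3-12, and the 6 tendon markers to 15905 and 9312, against 7926 and 9126. Their part in the levels of the ligands and antagonists was not tested.

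Of 5 tested proteases that process the ligands, none was called. Pcsk5, a proprotein convertase, had 344 and 193 normalized counts in muHuR-KO 1-9 and 3-9, against 165 in control 3-8 and 166 in control 3-12. This is a log2 fold change of 0.64 against both controls (standard error 0.35), which was 0.22 without muHuR-KO 1-9 and 1.05 without muHuR-KO 3-9. Bmp1, which releases myostatin from its propeptide, had 957 and 812 in muHuR-KO muscle, against 758 and 802, a log2 fold change of 0.18. Both were higher in both muHuR-KO libraries than in either control, at differences that did not pass the test.

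Of 19 tested SMADs and partners, Zfyve16, Trim33, Usp9x and Wwp1 were higher against control 3-8 and none was lower. From control 3-12 their log2 differences were negative, -0.21 for Zfyve16, -0.27 for Trim33, -0.24 for Usp9x and -0.51 for Wwp1. Trim33, a ubiquitin ligase that binds SMAD4 and phosphorylated SMAD2 and SMAD3, had 715 and 705 normalized counts in muHuR-KO 1-9 and 3-9, against 262 in control 3-8 and 859 in control 3-12. It exceeded control 3-8 by 1.44 on the log2 scale, and by 0.98 with the GC correction (limma adjusted p = 0.0288). As with Acvr2a, control 3-12 was the highest library. Smad4, the common partner of the receptor SMADs, had 1678 and 1677 normalized counts in muHuR-KO muscle, against 1896 and 1751 in controls 3-8 and 3-12. Skil, a corepressor induced by the pathway, had a log2 fold change of 0.46 against both controls and of 0.73 against control 3-8 (limma adjusted p = 0.125).

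Genes known to respond to SMAD2 and SMAD3 showed no call against both controls, and 9 of the 10 had a positive log2 fold change with a median of 0.35, against a median of -0.01 and 49.3% positive over all tested genes. Against control 3-8 the median was 0.13 and 7 of the 10 were positive. Some markers of other cells had positive medians against both controls as well, with none called in that comparison. The medians were 0.63 for the 6 tendon markers and 0.64 for the 7 tested macrophage and leukocyte markers. Those of fibroblasts, satellite cells and Schwann cells were each 0.16, and those of endothelium and adipocytes were -0.04 and -0.05. The 8 listed macrophage and leukocyte markers summed to 1192 and 739 normalized counts in muHuR-KO 1-9 and 3-9, against 541 in control 3-8 and 828 in control 3-12, with 1 of the 8 at 0 in some libraries. Their part in the values of these genes was not tested. Nox4, an NADPH oxidase, was the only one called against control 3-8. It had 127 and 139 normalized counts in muHuR-KO 1-9 and 3-9, against 42.0 in control 3-8 and 123 in control 3-12. Both muHuR-KO libraries exceeded both controls, although control 3-12 was nearly as high. Timp1, a protease inhibitor, had 234 and 88.6 in muHuR-KO muscle, against 101 and 95.7, so that its log2 fold change of 0.55 against both controls came from muHuR-KO 1-9 and was -0.15 without it.

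Of 6 genes known to respond to the BMP branch, none was called against both controls and 1 was higher against control 3-8. Id1, an inhibitor of differentiation that SMAD1 and SMAD5 induce, had 192 and 341 normalized counts in muHuR-KO 1-9 and 3-9, against 251 in control 3-8 and 71.7 in control 3-12. Control 3-12 alone was low, and the log2 fold change against both controls was 0.92 (standard error 0.58). Fbxo30, the ubiquitin ligase MUSA1 that BMP signaling restrains in mouse muscle, had 647 and 682 in muHuR-KO muscle, against 274 and 712, and was higher against control 3-8 (log2 fold change 1.27, limma adjusted p = 0.00968), with a log2 difference of -0.10 from control 3-12. With the GC correction this value was 0.22.

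The genes whose values over the 4 libraries came closest to those of 3 of these genes were sought by the root mean square distance of centred log2 values, among 11181 others with a mean of at least 50 (11182 for Acvr2b). Closest to Mstn were Cep152 (0.0074), Lrch1 (0.0270) and Slc4a4 (0.0329), and 41 genes lay within 0.1. Cep152 had 69.7 and 59.5 normalized counts in muHuR-KO 1-9 and 3-9, against 33.2 in control 3-8 and 49.7 in control 3-12. Closest to Fst were Creb3l2 (0.0161), Ttll5 (0.0260) and Nanp (0.0268), with 95 genes within 0.1. Closest to Acvr2b were Ibtk (0.0467), Agps (0.0501) and Zfp108 (0.0566), with 19 within 0.1. This closeness describes these 4 libraries alone.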

How the data were processed

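Reads of the 4 soleus libraries were mapped by the authors with TopHat2 2.0.10 on GRCm38 (mm10). HTSeq 0.6.1 gave the counts of each gene, which DESeq2 then normalized. The deposited signal values are thus normalized counts of each library. The authors' mean, fold change, error and p-value columns were not used. The strand setting, annotation and DESeq2 version are not given in the sources used here.

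Whole reads were recovered in 100% of values to within 0.01. Genes with a mean of at least 10 were tested with limma 3.58.1 (R 4.3.3, eBayes with trend) on log2(value + 1), and p-values were adjusted (Benjamini-Hochberg) over 13287 genes, with 2 residual degrees of freedom against both controls and 1 against control 3-8. The units of replication are mice. Poisson and binomial intervals cover counting error only. GENCODE M21 (GRCm38) gave coordinates, exon lengths and GC content (99.2% of tested genes). Alternatives were pseudocounts of 0.5 and 5, other filters, TMM factors, edgeR 4.0.16, DESeq2 1.42.0, no trend, loess corrections (span 0.4) and each library left out. The limma and edgeR fits were also run on simulated counts with the spread of the muHuR-KO pair. The simulation held no GC shift and no remote control, so it cannot show how the fits behave with them.

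The 9 genes and all gene lists were chosen with earlier results of these data known. Named were the 9 genes, Elavl1, the 2 genes of smallest p against both controls in each of 7 other lists, and the 3 closest patterns to Mstn, Fst and Acvr2b. Other names were chosen after their values were seen.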

Additional observations from a re-analysis of the deposited data

How the results depend on the processing

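With 4 libraries and 2 controls that differ most from each other, the choice of control set most values. Against both controls, the count of the 9 genes called was 0 in every alternative but one, and 0 to 1 without single libraries (1 without control 3-12, Acvr2a). Against control 3-8 the count of 1 became 0 with no filter on low counts, without the trend and with the correction for GC content. Calls among all genes there were 1304, with 0 under no filter, 0 without the trend, 481 after the GC correction and 670 after the length correction, and against both controls 2 without control 3-8 and 1266 without control 3-12. The sign turned with the GC correction for Fstl3 (0.0018), Smad2 (-0.0993) and Dcn (-0.0199) against both controls, and for Mstn (-0.14), Fst (-0.25), Smad2 (-0.15), Gdf10 (0.032), Dcn (-0.496) and Skil (-0.029) against control 3-8. With the length correction it turned for Smad2 (-0.16 against both controls, -0.33 against control 3-8) and Bmp1 (-0.023 against control 3-8). Without single libraries, values against both controls ran from -0.41 (without control 3-8) to 0.15 (without control 3-12) for Fst, -0.38 to 1.41 for Acvr2a, -0.12 to 0.19 for Smad2 and -0.0997 to 1.27 for Fbxo30 on the same omissions, from -0.31 (without control 3-12) to 0.64 (without control 3-8) for Smad7, and from -0.58 to 0.38 for Fstl3 and 1.25 to -0.15 for Timp1 without muHuR-KO 3-9 and 1-9. Others of the same sign moved widely, Acvr2b between 0.019 and 0.96, Inhba between 0.048 and 1.55 and Nox4 between 0.11 and 1.64 (without control 3-8 and without control 3-12), and Dcn between 0.011 and 0.91 (without muHuR-KO 1-9 and 3-9). The cause was not tested. No paired analysis was possible because no mouse number is shared between the groups; the first part of the number, 3, is that of muHuR-KO 3-9 and both controls, and what it marks is not given in the sources used here. Without a muHuR-KO library the comparison with control 3-8 alone leaves no test. Mstn, Gdf11, Fstl3 and Acvr2b rest on 8 to 137 reads a library, so small differences were not detectable in them at this depth.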
